A study of Mus musculus with 12 samples.

Results

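Nr4a1, Nr4a2 and Nr4a3, the 3 genes of the NR4A family of orphan nuclear receptors, were taken by their gene symbols from the 52858 genes measured in each of 12 mouse heart libraries. All 3 passed the filter on low values that left 15240 genes for testing. RNA was sequenced from isolated hearts in 4 groups of 3 hearts each, which the study compared to ask how overexpression of Slit2, a secreted axon guidance protein, alters the response of the heart to ischemia and reperfusion (IR). C57-non-IR and C57-IR hearts came from C57BL/6J mice, the background strain. Slit2-non-IR and Slit2-IR hearts came from Slit2-Tg mice, which carry a human Slit2 cDNA behind the CMV promoter of a vector that is active in many cell types, in a line founded by injection into C57 x CBA F1 oocytes. The mice were adult males. Every heart was removed and perfused through the aorta with warm buffer on a Langendorff apparatus, so that no blood or blood cells reached it. IR hearts went through a period without flow and were then perfused again, and non-IR hearts were perfused without a break for the same total time, so that excision and perfusion are shared by all 4 groups and no heart was taken directly from an animal. The genotype was taken from the sample labels, and IR or non-IR was read from the letters of the sample titles against the groups described in the study's methods.

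NR4A proteins bind DNA as transcription factors like other nuclear receptors, but the pocket that would hold a ligand is filled by their own side chains, so that their activity is set largely by how much of each protein is made. They are immediate-early genes, which are transcribed within a short time of a rise in cAMP or calcium, growth factors, stretch or stress, from factors that are already present in the cell. NR4A1 (Nur77) and NR4A2 (Nurr1) can act alone or with retinoid X receptors, NR4A3 (NOR-1) does not pair with these receptors, and in heart and muscle the family is known for its induction by beta-adrenergic stimulation and its links to glucose and lipid use.

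The sequences just upstream of the 3 genes are shown because the members moved together, and the motif marked in them belongs to the cAMP route. Capitals mark CGTCA and its reverse complement TGACG, the half-site of the cAMP response element. The bases were taken from the RefSeq promoter windows of GRCm38.p6 and run 5' to 3' on the strand of the gene, ending at the base before the gene's start in the deposited annotation. They cover chr15:101266596-101266845 on the + strand for Nr4a1, chr2:57124004-57124253 on the - strand for Nr4a2 and chr4:48045055-48045152 on the + strand for Nr4a3. No exon of the GENCODE annotation of the same assembly lies inside them.
Nr4a1: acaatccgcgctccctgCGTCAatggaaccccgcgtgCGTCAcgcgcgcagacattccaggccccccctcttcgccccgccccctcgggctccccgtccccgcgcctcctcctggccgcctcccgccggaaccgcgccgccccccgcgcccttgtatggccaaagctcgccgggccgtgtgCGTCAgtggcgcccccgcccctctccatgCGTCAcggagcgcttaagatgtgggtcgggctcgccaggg
Nr4a2: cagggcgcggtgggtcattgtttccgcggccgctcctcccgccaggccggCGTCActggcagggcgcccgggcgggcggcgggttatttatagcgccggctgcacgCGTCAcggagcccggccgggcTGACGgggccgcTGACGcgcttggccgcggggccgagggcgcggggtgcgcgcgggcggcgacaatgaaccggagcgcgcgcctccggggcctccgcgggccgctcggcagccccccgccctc
Nr4a3: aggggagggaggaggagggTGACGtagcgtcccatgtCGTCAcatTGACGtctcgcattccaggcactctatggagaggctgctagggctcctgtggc

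The half-site was found 4 times in the shown stretch of Nr4a1, 4 times in that of Nr4a2 and 3 times in that of Nr4a3. In the full RefSeq windows of 300 bases, from 250 before to 50 after the annotated start, each member held 4 matches on either strand. Of 32851 windows of that length over all genes, 20.8% held at least 1 match and 0.231%, or 76 windows, held at least 4. The 3 windows were rich in G and C, with 72.3%, 81.7% and 64.7% for Nr4a1, Nr4a2 and Nr4a3 against a median of 52.7%, and among the 6218 windows with at least 64.7% G and C, 0.563% held 4 or more matches. The full element TGACGTCA, whose ends are themselves a TGACG and a CGTCA, was in no member's window and in 1.79% of all windows. The NR4A monomer site AAAGGTCA, searched on both strands, was in no member's window and in 1.51% of all. The CArG box bound by serum response factor, searched only as CCWWWWWWGG with W for A or T, was in no member's window and in 1.63% of all. Forms of it with a mismatch were not searched. Such matches describe letters in these windows, and occupancy was not measured. In the deposited annotation of GRCm38, Nr4a1 (ENSMUSG00000023034) spans chr15:101266846-101274792 on the + strand, Nr4a2 (ENSMUSG00000026826) spans chr2:57106830-57124003 on the - strand and Nr4a3 (ENSMUSG00000028341) spans chr4:48045153-48086447 on the + strand. No other gene model of the files overlapped any of the 3, and GENCODE also holds Nr4a1 transcripts that start further upstream, within which the Nr4a1 stretch lies between exons.

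Between 16601154 and 24841291 reads fell on genes in each library, and mitochondrial genes took 19.7% to 26% of them. Values are given as FPKM, fragments per kilobase of gene scaled to library size, which the authors scaled between libraries. The mouse Slit2 row read 0.0847 to 0.813 FPKM and does not check the genotype, since the transgene is a human cDNA. Cardiomyocyte markers summed to 1.06e+04 to 1.63e+04 FPKM, and none of the 9 was at 0 in any library. The summed atrial markers reached 1710 FPKM in Slit2-IR replicate 1 and lay between 19.9 and 233 in the other 11 libraries. By group they ran from 19.9 to 87 FPKM in C57-non-IR and from 85.8 to 233 in C57-IR hearts. In Slit2-non-IR hearts they ran from 40 to 106 FPKM, and in Slit2-IR hearts from 67.3 to 1710.

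Nr4a3 rose after IR in both genotypes, from under 1 FPKM to over 13. In C57-non-IR hearts it read 0.971, 0.635 and 0.878 FPKM, and in C57-IR hearts 16.1, 37.7 and 14.7. In Slit2-non-IR hearts it read 0.733, 0.71 and 0.554 FPKM, and in Slit2-IR hearts 28.2, 33.4 and 13.3. Every IR heart lay above every non-IR heart, and the lowest C57-IR heart stood 15.1 times above the highest C57-non-IR heart. Means were 0.828 ± 0.174 FPKM (SD, n = 3) and 22.8 ± 12.9 in the C57 groups, a ratio of 27.6, and 0.666 ± 0.097 and 24.9 ± 10.4 in the Slit2 groups, a ratio of 37.5. On the scale of log2(FPKM + 1), which understates the change of low genes, the difference was 3.58 (SE 0.35, 95% confidence interval 2.81 to 4.36) in C57BL/6J hearts, with an adjusted p of 0.00309 in limma's moderated test. It was 3.87 (SE 0.35, 3.09 to 4.64) in Slit2-Tg hearts, with an adjusted p of 0.00143. Among the 15240 tested genes this was the third largest difference of log2(FPKM + 1) in both genotypes. It came behind the heat shock genes Hspa1b and Hspa1a, which were looked up after the ranks were seen. Ratios of FPKM were not ranked. The non-IR levels rested on 82 to 99 reads per library, and the IR levels on 1683 to 4808.

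Nr4a2 also rose after IR in both genotypes, by a smaller factor. In C57-non-IR hearts it read 3.38, 2.69 and 2.32 FPKM, and in C57-IR hearts 9.99, 20.4 and 10.4. In Slit2-non-IR hearts it read 1.35, 3.1 and 3.93 FPKM, and in Slit2-IR hearts 17.9, 16.5 and 10.5. The IR and non-IR hearts of a genotype did not overlap, and the lowest IR heart stood 2.95 times above the highest non-IR heart in C57BL/6J and 2.67 times in Slit2-Tg. Means went from 2.8 ± 0.54 (SD, n = 3) to 13.6 ± 5.9 FPKM in the C57 groups and from 2.79 ± 1.32 to 15 ± 3.96 in the Slit2 groups, ratios of 4.87 and 5.36. The difference of log2(FPKM + 1) was 1.88 (SE 0.32, 1.19 to 2.58; adjusted p = 0.039 in limma) in C57BL/6J hearts and 2.11 (SE 0.32, 1.41 to 2.80; adjusted p = 0.0236) in Slit2-Tg hearts. These calls sat near the threshold, with adjusted p-values from 0.0186 to 0.161 and from 0.00885 to 0.116 over the alternatives, of which 10 and 7 of 20 lost the call.

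Nr4a1 was the most abundant member in every heart. In C57-non-IR hearts it read 101, 117 and 117 FPKM, and in C57-IR hearts 248, 440 and 235. In Slit2-non-IR hearts it read 54.7, 156 and 129 FPKM, and in Slit2-IR hearts 370, 410 and 250. The IR hearts were again all above the non-IR hearts, with means of 112 ± 9.11 (SD, n = 3) and 308 ± 115 FPKM in the C57 groups, a ratio of 2.75, and 113 ± 52.3 and 344 ± 83.2 in the Slit2 groups, a ratio of 3.04. Within 1 genotype the difference did not pass limma's adjusted threshold, at 1.39 (SE 0.36, 0.60 to 2.19; adjusted p = 0.153) in C57BL/6J hearts and 1.69 (SE 0.36, 0.90 to 2.49; adjusted p = 0.0707) in Slit2-Tg hearts. When replicate numbers were blocked, the same difference of 1.69 in Slit2-Tg hearts had an adjusted p of 0.0318. The spread between the IR hearts was wide beside the narrow C57-non-IR group, whose coefficient of variation was 8.14% against 37.4% in C57-IR, 46.3% in Slit2-non-IR and 24.2% in Slit2-IR hearts.

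**Figure D1:**
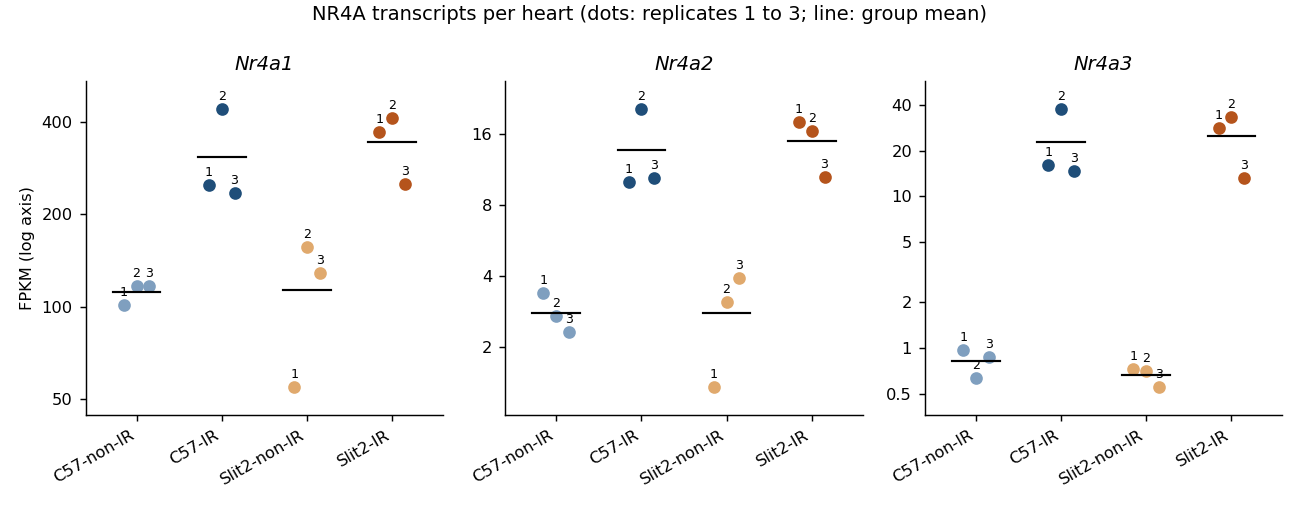
FPKM of Nr4a1, Nr4a2 and Nr4a3 (log axis, 1 panel each) in the 4 groups; each dot is 1 heart with its replicate number, and the line is the group mean (n = 3). All 6 IR hearts lie above all 6 non-IR hearts in each panel, with group means of Nr4a3 going from 0.828 to 22.8 FPKM in C57BL/6J and from 0.666 to 24.9 in Slit2-Tg hearts.

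In C57BL/6J hearts 2 of 3 members were thus called higher after IR, where 0.407% of all tested genes were, and all 3 had an unadjusted p under 0.05 with higher values, against 4.55% of all genes. In Slit2-Tg hearts 2 of 3 were called, against 0.446%, and all 3 at the unadjusted threshold, against 6.15%. Over both genotypes together, the mean IR difference passed for all 3 members, where 2.34% of all genes were called higher. It was 1.54 (SE 0.25, 0.98 to 2.10; adjusted p = 0.00751) for Nr4a1, 2.0 (SE 0.22, 1.5 to 2.49; adjusted p = 0.00151) for Nr4a2 and 3.72 (SE 0.25, 3.18 to 4.27; adjusted p = 5.7e-05) for Nr4a3, all in limma. An exact two-sided permutation of the IR labels within each genotype gave p = 0.005 for each member, the smallest that 400 relabelings allow. An exact permutation test of 3 hearts against 3 gave p = 0.1 for each member in each genotype, which is the smallest possible and cannot pass 0.05. All 6 IR hearts lay above all 6 non-IR hearts for each of the 3 members, and for 2.23% of all tested genes. Scaling each library to an equal total of reads outside the mitochondrial genome moved the median gene by -0.07 on the log2 scale in this contrast and changed the split over all genes from 356 higher and 176 lower calls to 277 higher and 305 lower, while the 3 members stayed called higher. In these bulk libraries fewer cells of a type and less RNA per cell cannot be told apart.

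No member differed detectably between Slit2-Tg and C57BL/6J hearts. In this comparison the transgene cannot be told apart from other differences between the line and the background strain. In continuously perfused hearts, Slit2-non-IR minus C57-non-IR was -0.11 for Nr4a1 (95% confidence interval -0.90 to 0.68), -0.06 for Nr4a2 (-0.75 to 0.64) and -0.13 for Nr4a3 (-0.91 to 0.65). After IR, Slit2-IR minus C57-IR was 0.19 for Nr4a1 (-0.60 to 0.98), 0.17 for Nr4a2 (-0.53 to 0.86) and 0.15 for Nr4a3 (-0.62 to 0.93). The groups overlapped for each member in both comparisons. All 6 adjusted p-values were 1 in limma, and 0 of 3 members had an unadjusted p under 0.05, where 3.19% and 3.16% of all genes did and 0.0394% and 0.0459% were called after adjustment. For Nr4a1 the interval reached from 0.534-fold to 1.6-fold in non-IR hearts and from 0.658-fold to 1.97-fold after IR. With 3 hearts a group, changes within these ranges are not excluded. The ranges are not limits of detection, since the 2.63-fold IR change of Nr4a1 in C57BL/6J hearts had an adjusted p of 0.153 in limma.

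The IR difference of Slit2-Tg hearts minus that of C57BL/6J hearts was 0.30 for Nr4a1 (-0.82 to 1.42), 0.22 for Nr4a2 (-0.76 to 1.21) and 0.28 for Nr4a3 (-0.81 to 1.38), with adjusted p-values of 1 in limma. No member was called, and neither was any other gene, with 0% of all tested genes called after adjustment and 1.86% at an unadjusted p under 0.05. The sign of several of these small differences turned when 1 heart was left out. Without Slit2-non-IR replicate 1, which had the lowest Nr4a1 and Nr4a2 of all 12 hearts, Slit2-non-IR minus C57-non-IR became 0.34 for Nr4a1 and 0.25 for Nr4a2.

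**Figure D2:**
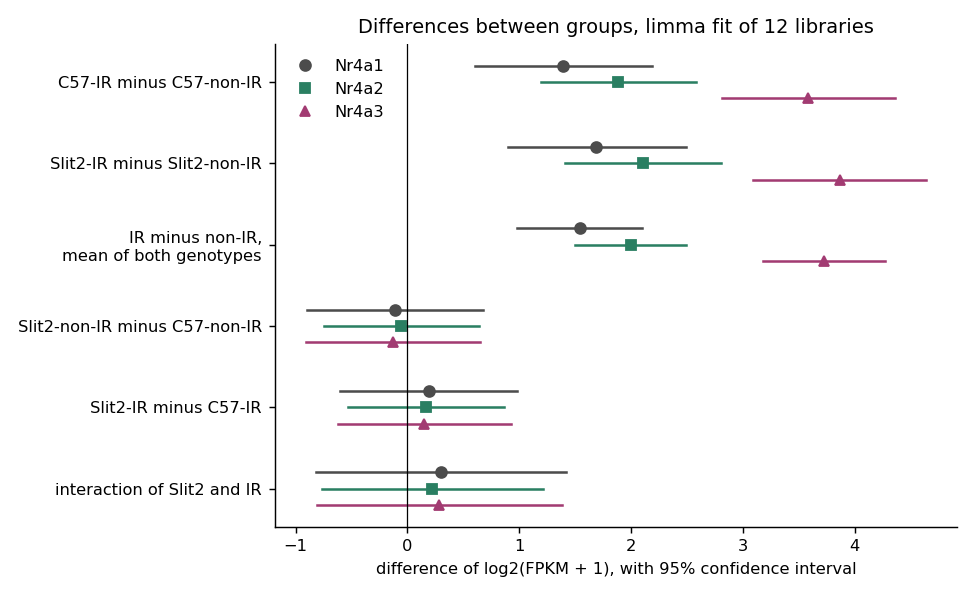
Differences of log2(FPKM + 1) between groups (x axis) for the 3 members in 6 comparisons (y axis); symbols are limma estimates from the 12 libraries and bars are 95% confidence intervals. The IR differences lie above 0 for each member, the largest being 3.87 for Nr4a3 in Slit2-Tg hearts, and the genotype differences and the interaction all span 0.

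Because the members rose by different factors, the make-up of the family changed after IR. Nr4a1 supplied 95.9% to 97.6% of the summed FPKM of the 3 genes in the 6 non-IR hearts and 88.3% to 91.3% in the 6 IR hearts. Nr4a3 was the least abundant member in every non-IR heart, with a ratio to Nr4a2 of 0.141 to 0.541, and was above Nr4a2 in every IR heart, with a ratio of 1.27 to 2.02. The ratio of Nr4a1 to Nr4a3 went from 74.7 to 232 in non-IR hearts to 11.7 to 18.9 in IR hearts, and that of Nr4a1 to Nr4a2 from 30 to 50.6 to 20.6 to 24.8. On average over both genotypes the ratio of Nr4a3 to Nr4a2 rose 5.79-fold, while Nr4a1 fell 10.2-fold relative to Nr4a3 and 1.76-fold relative to Nr4a2. Each of these 3 changes had p = 0.005 in the exact permutation of IR labels within genotype, the smallest possible, and 0.005 after adjustment over the 3 ratios, which were chosen after the levels were seen. A ratio within a library does not depend on how libraries are scaled to each other.

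**Figure D3:**
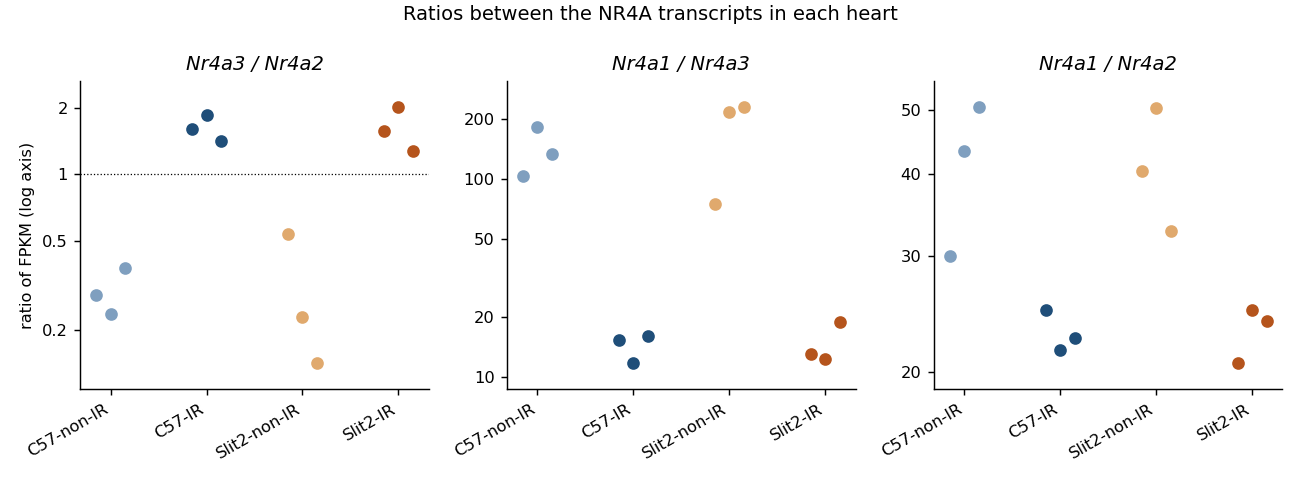
Ratios of FPKM between members (log axis, 1 panel a ratio) in each heart of the 4 groups, with a dotted line where Nr4a3 equals Nr4a2. The ratio of Nr4a3 to Nr4a2 is 0.141 to 0.541 in the 6 non-IR hearts and 1.27 to 2.02 in the 6 IR hearts, and the ratios of Nr4a1 to the other members are lower in all IR hearts.

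Among the IR hearts the 3 members had similar patterns by Pearson's r, while no rank correlation passed after adjustment. C57-IR replicate 2 had the highest level of each member among all 12 libraries, and Slit2-IR replicate 3 had the lowest of each within its group. Over the 6 IR hearts, log2(FPKM + 1) of Nr4a1 and Nr4a3 gave Pearson's r = 0.99 (exact permutation p = 0.00694, adjusted over 6 relations 0.0417) and Spearman's rho = 0.83 (exact p = 0.0583, adjusted 0.175). For Nr4a1 and Nr4a2 they were 0.97 (exact p = 0.0208, adjusted 0.0625) and 0.89 (exact p = 0.0333, adjusted 0.175), and for Nr4a2 and Nr4a3 0.96 (exact p = 0.0389, adjusted 0.0778) and 0.71 (exact p = 0.136, adjusted 0.272). Leaving out the 2 hearts farthest from the median of the first gene, r was 0.96, 0.98 and 0.96 in the same order. The points share a library and its scaling.

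Among the 6 non-IR hearts this likeness was not seen for Nr4a3. Its r was -0.19 with Nr4a1 (exact permutation p = 0.733) and -0.17 with Nr4a2 (exact p = 0.76), with rho of -0.49 (exact p = 0.356) and -0.31 (exact p = 0.564), and adjusted p-values of 0.76, 0.76, 0.427 and 0.564. Without the 2 farthest hearts these r were -0.85 and 0.20. Nr4a1 and Nr4a2 gave r = 0.80 (exact p = 0.0792, adjusted 0.119) and rho = 0.49 (exact p = 0.356, adjusted 0.427), and r fell to 0.13 without the 2 farthest hearts, so that this value rests on them. Slit2-non-IR replicate 1 had the lowest Nr4a1 and Nr4a2 of its group. Its Nr4a3, at 0.733 FPKM from 91 reads, was close to the 0.71 FPKM from 98 reads in replicate 2. Nr4a3 rested on under 100 reads in each non-IR heart, and the difference between the IR and non-IR correlations was not tested.

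For Nr4a1 the highest Pearson's r of log2(FPKM + 1) belonged to Socs3, an inhibitor of cytokine signalling (r = 0.984), the AP-1 subunit gene Junb (0.984), the matricellular gene Cyr61 (0.981), the NF-kappaB regulator gene Nfkbiz (0.980) and the small Maf factor gene Maff (0.980). For Nr4a2 they were Myc (0.986), Rnf122 (0.986), the AP-1 gene Fosl2 (0.982), the stress factor gene Atf3 (0.980) and the kinase gene Map3k8 (0.980). For Nr4a3 they were Fosl2 (0.986), the heat shock cochaperone gene Dnajb1 (0.983), Atf3 (0.982), the ERK phosphatase gene Dusp5 (0.979) and Hspa1a (0.978). These r include the step between non-IR and IR hearts, which every gene changed by IR shares.

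With the group means subtracted, so that only the differences between hearts of 1 group remain, the r of Nr4a1 with its 5 genes was 0.908 to 0.970, highest for Junb, and that of Nr4a2 with its 5 genes was 0.841 to 0.942, highest for Rnf122. For Nr4a3 it was 0.913 with Dusp5 and fell to 0.400 with Hspa1a. These genes were picked by an r over the same libraries that includes the differences between hearts. High values with the group means subtracted are therefore partly built in, and the same r over all genes is not given. The mean FPKM of Junb went from 132 to 364 in the C57 groups and from 136 to 375 in the Slit2 groups, close in size to the levels of Nr4a1 itself. Fosl2 went from 5.31 to 26.1 and from 5.42 to 27.1 FPKM. A group of 12 genes stood among the 50 most alike of all 3 members: Arid5a, Atf3, Bhlhe40, Cfap43, Dusp5, Eif1a, Fosl2, Gadd45g, Gfpt2, Irf1, Irs2 and Myc. Their mean IR differences ran from 0.87 for Cfap43 to 2.55 for Atf3 and Irs2, so all lay below that of Nr4a3.

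Averaged over both genotypes, the 3 NR4A genes had the largest IR differences of the nuclear receptor genes tested. Of 46 other nuclear receptor genes listed, 35 were tested, and 0 were called in either direction in C57BL/6J, in Slit2-Tg or over both genotypes, where 0.459%, 0.525% and 3.49% of all genes were; over both genotypes the count reached 2 when libraries were rescaled. At an unadjusted p under 0.05 there were 0 higher and 2 lower in C57BL/6J, 3 higher and 4 lower in Slit2-Tg, and 3 higher and 6 lower over both. The shares of all genes at that threshold, in either direction, were 8.96%, 11.2% and 15.9%. The members held the first 3 places of 38 by mean IR difference. The next was Nr1d1, the clock repressor REV-ERB alpha, at 1.27 (SE 0.504, adjusted p = 0.235), which was singled out after its value was seen and varied between hearts of 1 group, from 4.06 to 36.5 FPKM in C57-IR hearts. In Slit2-Tg hearts alone Nr1d1 stood at 1.94 (adjusted p = 0.307), above Nr4a1 at 1.69, and in C57BL/6J hearts at 0.60 (adjusted p = 0.944). After it came Thra, a thyroid hormone receptor gene, at 0.217. Of the genes with the smallest p over both genotypes, Nr2f2 (COUP-TFII) was at -0.28 (SE 0.08, adjusted p = 0.0733) and the retinoic acid receptor gene Rarg at -0.32 (adjusted p = 0.133). In single genotypes the smallest p belonged to Rarg (-0.49, adjusted p = 0.235) and Nr2f2 (-0.31, adjusted p = 0.354) in C57BL/6J and to the oxysterol receptor gene Nr1h3 (-0.53, adjusted p = 0.204) and Esrrb (-0.35, adjusted p = 0.298) in Slit2-Tg hearts, all in limma.

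By level, Nr4a1 was already the most abundant of the 38 receptor transcripts in non-IR hearts, with a mean of 112 FPKM ahead of the estrogen-related receptor gene Esrra at 78.8, and stayed first in IR hearts at 326. Nr4a3 moved from place 31 at 0.747 FPKM to place 4 at 23.9, and Nr4a2 from place 22 at 2.8 to place 11 at 14.3. FPKM is per length of the gene model, so these levels can be set beside each other, within the limits of 1 model length per gene.

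**Figure D4:**
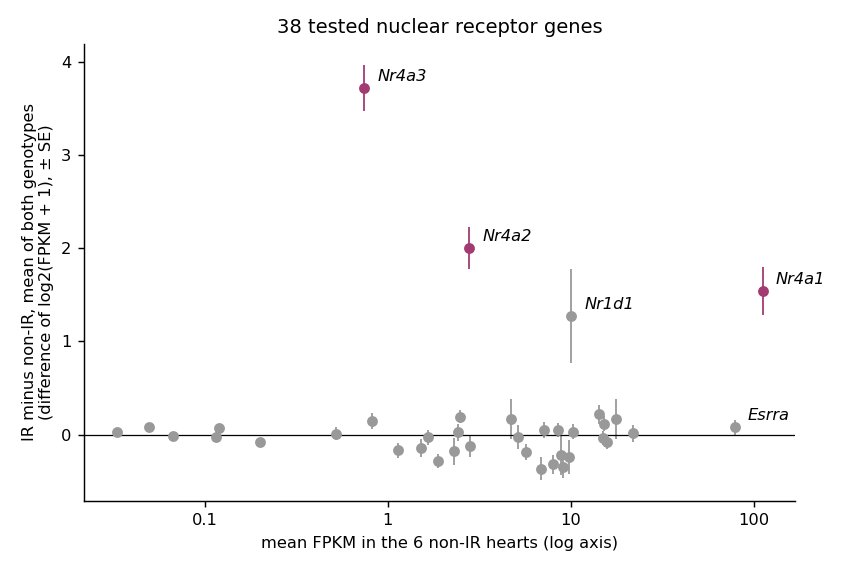
Mean FPKM in the 6 non-IR hearts (x axis, log) against the IR minus non-IR difference of log2(FPKM + 1) averaged over both genotypes (y axis, bars are SE) for the 38 tested nuclear receptor genes, with the NR4A genes in colour. Nr4a3, Nr4a2 and Nr4a1 lie at 3.72, 2.0 and 1.54, and every other receptor but Nr1d1 lies between -0.366 and 0.217.

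Most other immediate-early genes rose with the NR4A genes. Of 36 listed immediate-early genes other than the members, all tested, 21 were called higher over both genotypes and none lower, where 2.34% of all tested genes were called higher, with a median difference of 1.16 against 0.00 over all tested genes. Within genotypes 5 were called in C57BL/6J and 6 in Slit2-Tg hearts, counts that moved between 0 and 12 with the heart left out or the setting (12 in Slit2-Tg hearts with replicate numbers blocked), and 28 and 27 had higher values at an unadjusted p under 0.05. Of all genes 0.407% and 0.446% were called higher in these contrasts, and 4.55% and 6.15% at the unadjusted threshold. The largest mean IR differences in the list belonged to Atf3 (2.55), Myc (2.48), Arc (2.46), Gadd45b (2.27) and Maff (2.26), with adjusted p-values of 0.000844, 0.00199, 0.00173, 0.00571 and 0.00417 in limma. In C57BL/6J hearts alone the called genes were Atf3, Myc, Arc, Fosl2 and Dusp5. In Slit2-Tg hearts the 5 largest of the 6 called genes were Arc, Myc, Atf3, Maff and Fosl2, while Gadd45b at 2.56 (adjusted p = 0.0539 in limma) was not called. On this scale Nr4a3, at 3.72, lay above all 36, Nr4a2, at 2.0, above 30 of them and Nr4a1, at 1.54, above the same 30. These places hold for log2(FPKM + 1), which understates the change of low genes. Egr4, counted below all 3 members at 0.47, went from a mean of 0.0344 to 0.362 FPKM in the C57 groups. In the Slit2 groups Egr4 went from 0.0142 to 0.508 FPKM. Dusp1, a phosphatase gene of the same class, was at 0.01 (SE 0.16), and was singled out after its value was seen.

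**Figure D5:**
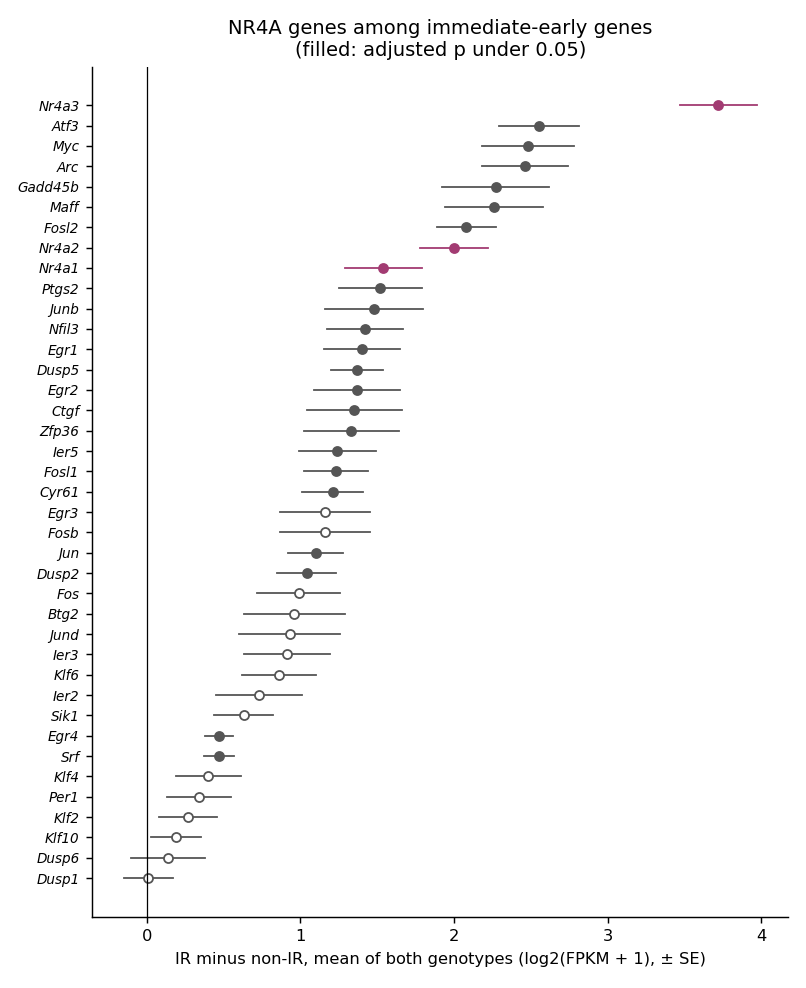
IR minus non-IR difference of log2(FPKM + 1), averaged over both genotypes, with SE bars (x axis) for the 3 NR4A genes in colour and 36 other immediate-early genes (y axis, sorted); filled dots passed the adjusted threshold. Nr4a3 leads at 3.72 ahead of Atf3 at 2.55, and Dusp1 is last at 0.01.

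The cAMP-CREB and calcium-MEF2 routes are known to switch on NR4A transcription. Of 19 genes of the cAMP route, Pde4b, which encodes a cAMP phosphodiesterase, was the 1 gene called in C57BL/6J hearts, at 1.33 (adjusted p = 0.0279), and in Slit2-Tg hearts, at 1.18 (adjusted p = 0.0403), in limma, counts that ranged from 0 to 2 over the alternatives. Over both genotypes Pde4b (1.25, adjusted p = 0.00173) and Crem, whose products include a cAMP-induced repressor (0.70, adjusted p = 0.00687), were called higher and none lower, where 2.34% of all genes were called higher, and the median of the list was 0.11. At an unadjusted p under 0.05, 3 of the 19 were higher in C57BL/6J, 5 in Slit2-Tg and 6 over both, against 4.55%, 6.15% and 7.93% of all genes, and none was lower. The mean FPKM of Crem went from 1.51 to 3.26 in the C57 groups and from 1.63 to 3.2 in the Slit2 groups. Of 19 listed genes of the calcium route 18 were tested, and Rcan1, a feedback inhibitor of calcineurin, was the 1 called over both genotypes, where 2.34% of all genes were called higher. Rcan1 was at 1.12 (adjusted p = 0.00759 in limma), with 1.14 (adjusted p = 0.103) in C57BL/6J and 1.09 (adjusted p = 0.0998) in Slit2-Tg hearts. In this list 2 genes were higher at an unadjusted p under 0.05 in C57BL/6J, 2 in Slit2-Tg and 3 over both. The shares of all genes were 4.55%, 6.15% and 7.93%. In Slit2-Tg hearts 1 gene of the list was lower at that threshold. Levels of the proteins and of cAMP or calcium were not measured here.

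The genes that encode NR4A partners were counted next. Of 14, among them the retinoid X receptors, nuclear receptor coactivators and corepressors, Fhl2 and Bcl2, 0 were called in any of the 3 IR contrasts in limma and 0 had an unadjusted p under 0.05, with median differences of -0.03, -0.00 and 0.00. With 0.459%, 0.525% and 3.49% of all genes called and 8.96%, 11.2% and 15.9% at the unadjusted threshold, 0 calls among 14 genes is near the background. The smallest p over both genotypes belonged to the Mediator subunit gene Med1, at -0.11 (SE 0.07, adjusted p = 0.525), and to Fhl2, at 0.10 (SE 0.08, adjusted p = 0.609). In C57BL/6J hearts it was Ncoa3 (-0.18, adjusted p = 0.793) and Ncoa1 (0.21, adjusted p = 0.822), and in Slit2-Tg hearts Bcl2 (0.19, adjusted p = 0.445).

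Genes reported in muscle or heart as NR4A targets, which serve glycogen and glucose use, fatty acid uptake and mitochondrial uncoupling, gave counts near or below those shares. Of 17 tested, 0 were called in the 3 IR contrasts in limma, where 0.459%, 0.525% and 3.49% of all genes were. At an unadjusted p under 0.05 there were 0 in C57BL/6J, 1 higher and 1 lower in Slit2-Tg, and 1 higher over both genotypes. At that threshold stood 8.96%, 11.2% and 15.9% of all genes. Prkag3, a subunit gene of AMP-activated kinase, was at 0.17 (SE 0.07, adjusted p = 0.29) over both genotypes, followed by Ppargc1b at 0.30 (SE 0.16, adjusted p = 0.433). In C57BL/6J hearts the smallest p belonged to Ppargc1b (0.40, adjusted p = 0.737) and the uncoupling protein gene Ucp2 (-0.34, adjusted p = 0.772), and in Slit2-Tg hearts to Ppargc1a (-0.51, adjusted p = 0.308) and Prkag3 (0.26, adjusted p = 0.376). The median difference of the list was 0.02, -0.02 and -0.00 in the 3 contrasts.

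The genes beside the members on their chromosomes had smaller IR differences than the member they neighbour. Within 500 kb, 9 tested genes neighbour Nr4a1, 1 neighbours Nr4a2 and 5 neighbour Nr4a3, and their mean IR differences ran from -0.40 to 0.67, from 0.10 to 0.10 and from -0.21 to 0.05. The 1 of these 15 genes that passed the test, where 3.49% of all genes did, was Grasp, the nearest gene on the left of Nr4a1 and one that encodes a scaffold for membrane receptors, with 0.67 over both genotypes (adjusted p = 0.0433 in limma) and mean FPKM of 11.4 and 16.2 in the C57 groups and 8.86 and 16.9 in the Slit2 groups. Atg101, nearest on the right, was at -0.06, Gpd2 beside Nr4a2 at 0.10 and Stx17 beside Nr4a3 at -0.21 (adjusted p = 0.258). At an unadjusted p under 0.05, 2 neighbours of Nr4a1 and 2 of Nr4a3 differed with IR, against 15.9% of all genes, and 0 of Nr4a2. At an unadjusted p under 0.05 between genotypes there was 1 neighbour of Nr4a1 in non-IR hearts, Atg101 at -0.38 (adjusted p = 1), and none after IR.

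Markers of the cell types a heart sample can hold were measured beside these results. Over the lists fixed for cardiomyocytes, atrial tissue, endothelium, fibroblasts, smooth muscle and pericytes, and macrophages and monocytes, no gene reached an unadjusted p of 0.05 between IR and non-IR samples of either genotype, except for 1 of 8 fibroblast markers that was higher in Slit2-IR than in Slit2-non-IR hearts. Of all genes, 8.96% in C57BL/6J and 11.2% in Slit2-Tg hearts differed at that threshold in either direction. Over both genotypes, the contrast in which all 3 members were called, 2 of 8 fibroblast and 2 of 6 mesothelial markers were higher and 2 of 7 blood markers were lower at that threshold, against 15.9% of all genes in either direction, and 0 markers of lung or skeletal muscle differed. Blood markers summed to 1.47 to 49.3 FPKM, and lung markers to 0.121 to 12.4. Endothelial markers summed to 167 to 265 FPKM over the 12 libraries, and macrophage and monocyte markers to 194 to 441. Slit2-IR replicate 1, with its high atrial markers, had the highest Nr4a2 of its group and the second highest Nr4a1 and Nr4a3. At an unadjusted p under 0.05, 2 of 6 mesothelial and 4 of 6 adipocyte markers were higher in C57-IR than in C57-non-IR hearts. So were 2 of 6 mesothelial markers in Slit2-IR than in Slit2-non-IR hearts. The shares of all genes higher at that threshold were 4.55% in C57BL/6J and 6.15% in Slit2-Tg hearts. Mesothelial and adipocyte markers summed to at most 6.47 and 17.3 FPKM in any library. The part of any of these cells in the NR4A values was not tested.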

How the data were processed

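RNA of 12 mouse hearts was measured in 4 groups of 3. The authors deposited 1 FPKM value for each gene in each library, with Ensembl identifiers, symbols, lengths and GRCm38 coordinates; the submitters' processing notes name HISAT2 and mm10, and how reads were counted, on which annotation and whether by strand is not given in the sources used here. FPKM times length was a whole multiple of 1 step per library (tolerance 0.01) for 100% of values, and the steps followed median-of-ratios size factors (relative spread 4.45e-12), so reads per gene were recovered for the depth and for 1 alternative. There were 0 unused per-library columns.

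A gene was tested where at least 3 libraries held FPKM worth 10 reads at median depth. The test was limma 3.58.1 (R 4.3.3), with moderated variances and an intensity trend, on log2(FPKM + 1) with 4 group means over 12 libraries. Adjustment was by Benjamini-Hochberg over 15240 genes, with a threshold of 0.05. The test was checked on simulated data with the same setting of the spread for every gene, so the check does not cover the members' own spread. Tables and permutations used Python 3.11.15 with pandas 2.3.3. P-values measure the spread between these hearts, and their number limits the precision. Members and gene lists were chosen with earlier results of these data known. Named genes are the members, up to 5 called genes per list and IR contrast by size (the 2 smallest p where none was called), the 5 genes most like each member and the genes common to the 50 most alike, and the nearest tested neighbours, of which 1 listed partner gene is not reported here; the call counts adjusted over all genes are the only adjusted ones used. Same-numbered libraries deviated together in all 3 pairs of Slit2-IR with Slit2-non-IR (correlations 0.143 to 0.294) and of Slit2-IR with C57-IR (0.154 to 0.362), and in 2 of 3 pairs of the other comparisons; the labels name no shared litter or day, so this pairing rests on the correlations. Alternatives were a pseudocount of 0.1, other filters, rescaling, limma-voom on recovered reads, a robust prior, the replicate block, the 6 libraries compared and leaving out each heart.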

Additional observations from a re-analysis of the deposited data

How the results depend on the processing

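Of 354 recomputed values for the members, 325 kept their direction and their side of the threshold, and the calls of Nr4a3 in both genotypes and of all 3 members over both genotypes held in every alternative run. Nr4a1 in Slit2-Tg hearts passed with the replicate block (1.69, adjusted p = 0.0318) and with limma-voom (1.71, adjusted p = 0.0461); leaving out 1 heart gave 1.24 to 1.99, and it passed without C57-IR replicate 2 (1.69, adjusted p = 0.0409). Nr4a2 lost its call with no filter beyond 1 read and with the 6 libraries compared, at 1.88 (adjusted p = 0.137 and 0.0987) in C57BL/6J and 2.11 (0.0709 and 0.057) in Slit2-Tg hearts. With hearts left out it ran from 1.57 to 2.05 in C57BL/6J, not called without any of the 3 C57-non-IR hearts, C57-IR hearts 2 and 3, Slit2-non-IR hearts 2 and 3 or Slit2-IR heart 1 (adjusted p 0.0532 to 0.161), and from 1.80 to 2.33 in Slit2-Tg, not called without any of the 3 Slit2-non-IR hearts or Slit2-IR replicate 1 or 2 (0.0535 to 0.116).

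Genotype differences, none called, turned sign when 1 heart was left out. Slit2-non-IR minus C57-non-IR ranged from -0.41 to 0.34 for Nr4a1 and from -0.28 to 0.25 for Nr4a2, positive without Slit2-non-IR replicate 1 and, for Nr4a2, at 0.05 without C57-non-IR replicate 1. Slit2-IR minus C57-IR ranged from -0.00 to 0.48 for Nr4a2 and from -0.10 to 0.57 for Nr4a3, at -0.02 and -0.08 without C57-IR replicates 1 and 3 and at -0.10 without Slit2-IR replicate 2. The interaction ranged from -0.15 to 0.59 for Nr4a1 and from -0.09 to 0.54 for Nr4a2, negative without Slit2-non-IR replicate 1.

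Counts of called immediate-early genes went from 5 to 0 without a filter, 2 after rescaling, 2 with limma-voom, 1 with the 6 libraries and 9 with the replicate block in C57BL/6J (0 to 12 with a heart left out), and from 6 to 1, 2 and 12 without a filter, with the 6 libraries and with the block in Slit2-Tg (0 to 10); over both genotypes they stayed between 14 and 29. The cAMP list went from 1 to 0 without a filter and with the 6 libraries in C57BL/6J (0 to 2), from 1 to 0 without a filter and after rescaling in Slit2-Tg (0 to 2), and from 2 to 4 with the block over both. The calcium list reached 1 with the 6 libraries in Slit2-Tg (0 to 1, as in C57BL/6J) and 2 with the block over both (1 to 2). Other nuclear receptors reached 2 after rescaling and 1 with limma-voom over both (0 to 2), and reported targets 0 to 1. The causes were not tested. All genes called over C57BL/6J, Slit2-Tg and both numbered 70, 80 and 532, and 7, 19 and 299 without a filter, where 28242 genes were tested. With the replicate block they rose to 174, 202 and 773, and with 1 heart left out they ran from 3 (without C57-non-IR replicate 2) to 254 (without C57-IR replicate 1), from 4 (without Slit2-IR replicate 2) to 180 (without C57-IR replicate 1) and from 329 to 713, so that the shares over all genes given beside the members' counts move in the same way. The replicate block changed no other call of a member.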
